A study of Homo sapiens with 12 samples.

Results

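Genes that restrain the mitogen-activated protein kinase pathway, and PHLDA1, which growth factor signals induce, were followed at the transcript level in Ewing sarcoma cells exposed to mithramycin. They were the dual-specificity phosphatase genes DUSP1, DUSP4, DUSP5 and DUSP6, the Sprouty genes SPRY1, SPRY2 and SPRY4, the Sprouty-related genes SPRED1 and SPRED2, and PHLDA1. Every probe set (a group of short probes that report on 1 transcript) that carried 1 of these symbols alone in the platform annotation was taken, which gave 26 of the 54613 probe sets that were not controls, for 10 of the 19775 genes with a probe set of 1 symbol. RNA came from TC32 and TC71, established human Ewing sarcoma cell lines, after 6 h with solvent (the control) or with 100 nM of mithramycin (plicamycin), a drug that sits in the minor groove of GC-rich DNA. Each of the 4 groups (TC32 control, TC32 mithramycin, TC71 control and TC71 mithramycin) held 3 arrays, 1 for each biological replicate, and so few arrays limit the precision. No other agent and no other genetic change of the cells is named in the labels.

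In the mitogen-activated protein kinase pathway a receptor activates RAS, and RAS starts the kinase chain RAF, MEK and ERK. Active ERK switches on genes, and some of these genes act back on the chain. The DUSP proteins remove phosphate from the kinases, DUSP1, DUSP4 and DUSP5 in the nucleus and DUSP6 in the cytoplasm, where it acts mainly on ERK. Sprouty and SPRED proteins hold back signalling between the receptor and RAF, and SPRED proteins do so by recruiting neurofibromin to RAS. PHLDA1, a protein with a pleckstrin homology-like domain, is encoded by a gene that growth factor signals induce. Transcripts of several of these genes are short-lived and are often read as a gauge of ERK activity.

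The upstream sequences of 4 of the genes are shown because mithramycin binds GC-rich DNA and because these genes span what was measured here. DUSP6 had the widest difference between the lines, SPRED2 fell furthest, PHLDA1 rose furthest, and DUSP1 had the most GC boxes. The sequences are the 250 bases before the first listed transcript start on the gene's own strand, from RefSeq on build GRCh38.p14, written 5′ to 3′. Capitals mark the GC box GGGCGG, a motif bound by Sp-family factors, on either strand. The DUSP6 window is chr12:89352502-89352751, that of SPRED2 is chr2:65432600-65432849, that of PHLDA1 is chr12:76031777-76032026 and that of DUSP1 is chr5:172771196-172771445, and all 4 lie on the minus strand.
DUSP6: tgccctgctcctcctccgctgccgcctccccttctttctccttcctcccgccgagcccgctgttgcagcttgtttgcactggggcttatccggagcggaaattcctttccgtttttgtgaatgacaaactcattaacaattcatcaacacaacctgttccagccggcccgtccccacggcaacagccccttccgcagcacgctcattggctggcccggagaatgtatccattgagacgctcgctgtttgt
SPRED2: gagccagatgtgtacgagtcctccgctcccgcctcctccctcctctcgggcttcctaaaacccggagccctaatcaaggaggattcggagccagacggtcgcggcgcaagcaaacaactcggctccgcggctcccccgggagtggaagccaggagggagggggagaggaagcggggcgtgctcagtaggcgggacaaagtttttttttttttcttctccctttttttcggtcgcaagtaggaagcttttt
PHLDA1: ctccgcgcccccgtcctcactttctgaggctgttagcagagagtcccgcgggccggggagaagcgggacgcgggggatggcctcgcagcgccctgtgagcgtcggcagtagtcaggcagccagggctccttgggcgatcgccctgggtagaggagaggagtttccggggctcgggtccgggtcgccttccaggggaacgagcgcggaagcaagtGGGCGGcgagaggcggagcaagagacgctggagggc
DUSP1: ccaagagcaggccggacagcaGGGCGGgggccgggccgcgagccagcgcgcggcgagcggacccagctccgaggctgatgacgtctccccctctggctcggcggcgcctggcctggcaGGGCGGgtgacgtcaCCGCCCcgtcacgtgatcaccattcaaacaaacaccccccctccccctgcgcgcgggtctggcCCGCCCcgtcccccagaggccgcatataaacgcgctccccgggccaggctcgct

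Of the 10 genes, 8 matched the RefSeq promoter table, with 12 start sites between them. GGGCGG was searched on both strands, with overlaps counted, and occurred in 6 of these 12 windows, against 42.6% of all 35116 windows. The DUSP1 window held 4 GC boxes and the PHLDA1 window 1, whereas the windows of DUSP6 and SPRED2 held 0. Their GC content was 74.4% for DUSP1, 70.4% for PHLDA1, 58.8% for SPRED2 and 57.2% for DUSP6, with a median of 58.0% over all windows. A second SPRED2 start had a window with a GC content of 39.2%. TGACGT, the core of a cyclic AMP response element, was searched in the same way and occurred 3 times in the DUSP1 window and in none of the other 11, against 7.1% of all windows. The stretch tgacgtca in the DUSP1 window reads the same on both strands and was counted on each, so 3 is not the number of separate sites. These counts describe letters in a window and not the binding of a factor.

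The arrays gave 1 log2 value per probe set after robust multi-array average (RMA), and their medians lay between 4.38 and 4.47. Values of 1 probe set can be compared between arrays but not with those of another probe set. Of the 26 probe sets, 12 lay above the array median on all 12 arrays, 8 lay below it on all 12, and the other 6 were mixed. The size of a change at a probe set below the medians is rough, and a detection call was not used here. Of 8 measured Ewing sarcoma markers 7 had a mean of at least 6, including CD99 at 10.95 or higher and STEAP1 at 10.45 or higher on every array, whereas 0 of 5 blood, 0 of 4 epithelial and 0 of 4 endothelial markers did. The highest of these were the blood marker CD79A, at 4.64 to 5.06 in TC32 and 5.74 to 6.13 in TC71, and the endothelial marker PECAM1, at 4.92 to 5.29 in TC32. Of 5 fibroblast markers 3 had such a mean, with COL3A1 at 9.38 to 11.6 over the arrays and DCN at 8.07 to 8.72 in TC71 but 3.75 to 4.41 in TC32. The part of these markers in the results was not tested. The excess of the 3′ over the 5′ probe set of beta-actin reflects how intact the RNA was. It was 2, 1.08 and 1.28 on the TC71 control arrays, higher than on any other array. It lay at 0.672 to 0.735 in TC32 controls, 0.795 to 0.992 in treated TC71 and 0.51 to 0.675 in treated TC32. RNA quality thus cannot be fully told apart from the line in untreated cells, or from the drug in TC71. Its part in the results was tested only as a covariate.

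Differences were tested with limma on all probe sets, with 2-sided p-values adjusted by the Benjamini-Hochberg method, and a probe set passed at an adjusted p under 0.05. Errors of differences are standard errors of the model (n = 3 arrays per group), and errors of levels are SD. In untreated cells most of the 10 genes stood apart by line. TC71 was lower than TC32 at 13 of the 26 probe sets and higher at 3, against 21.9% lower and 20.7% higher over all probe sets. With the beta-actin covariate 7 of the 26 were lower, and lower calls over all probe sets went from 11963 to 7855. With arrays centred on housekeeping genes 9 of the 26 were lower, and 6826 over all. The median difference was -0.36 for the 26 sets and -0.037 for all sets. Taken by the brightest probe set of each gene, 8 of the 10 genes were lower in TC71 (23.5% of all genes), PHLDA1 was higher (25.8% of all genes were higher), and SPRY1 did not pass. The calls of DUSP4, SPRY4 and SPRED1 at these sets were lost with the beta-actin covariate. Those of DUSP4 and SPRED1 were also lost with arrays centred on housekeeping genes. DUSP6 and SPRY2 differed most. Lower values in TC71 were not general to feedback genes. Of 20 other feedback genes of the pathway, by brightest set, 7 were higher and 6 lower in TC71, with a median of 0.030.

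With mithramycin, most of the 26 probe sets did not pass the test. In TC32 5 were higher and 3 lower, against 19.4% and 16.9% of all probe sets, and in TC71 4 were higher and 2 lower, against 14.5% and 13.7%. These shares of the 26, 19.2% and 11.5% in TC32 and 15.4% and 7.69% in TC71, were near or under those of all probe sets. The median change was 0.073 in TC32 and 0.092 in TC71, against 0.065 and 0.053 over all probe sets. In such bulk RNA, fewer cells with a transcript and less of it per cell cannot be told apart. The changes that passed were thus those of single genes, chiefly a rise of PHLDA1 and a fall of SPRED2 in each line. For the difference between the lines' responses limma called 0 of the 26 probe sets (4 had an unadjusted p under 0.05), against 6.86% of all probe sets.

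**Figure D1:**
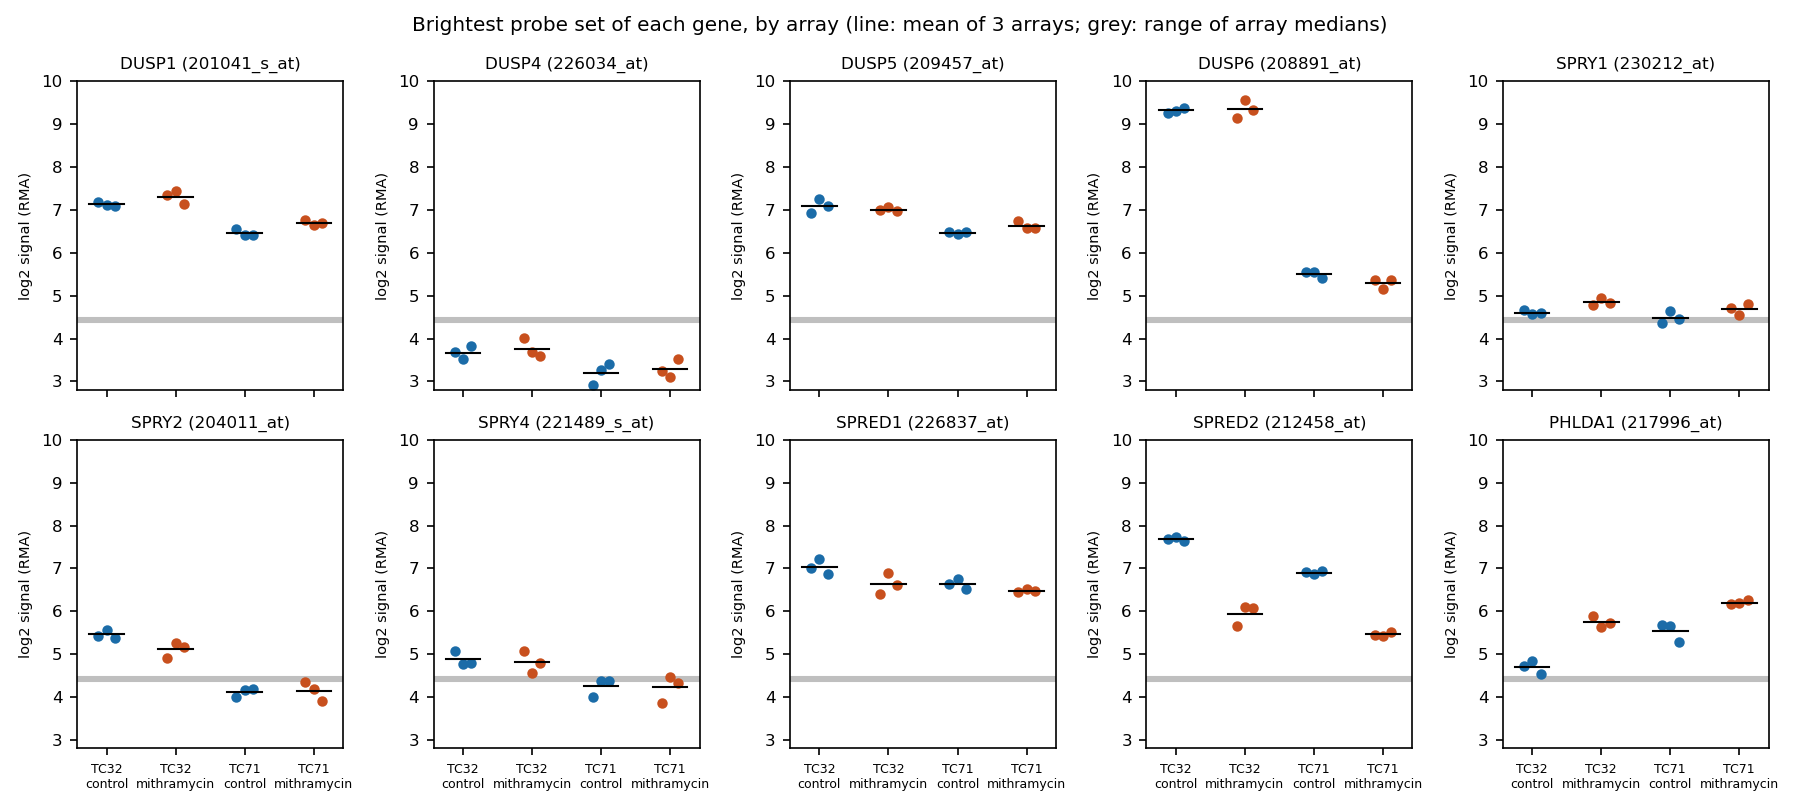
Log2 RMA signal (vertical axis) of the brightest probe set of each of the 10 genes on every array, by group (horizontal axis), with blue points for control arrays, orange points for mithramycin arrays, black lines for the mean of 3 arrays and a grey band for the range of array medians. DUSP6 lies above 9 on every TC32 array and below 6 on every TC71 array, SPRED2 is lower and PHLDA1 higher with mithramycin in both lines, and DUSP4 lies below the band throughout.

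DUSP6, the cytoplasmic phosphatase that acts mainly on ERK, was bright in TC32 and dim in TC71. Its brightest probe set, 208891_at, read 9.26, 9.31 and 9.39 on the TC32 control arrays and 5.55, 5.56 and 5.41 on the TC71 control arrays. The lines did not overlap. TC71 was lower by 3.82 ± 0.10 on the log2 scale, a 14.1-fold difference (limma adjusted p = 4.15e-12). The other 2 probe sets gave 13.0-fold (208893_s_at) and 14.5-fold (208892_s_at), so all 3 sets agree on the direction and closely on the size. By brightest set, DUSP6 was number 114 from the lowest of 19775 genes for this difference.

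Mithramycin left the line difference of DUSP6 in place. With the drug 208891_at read 9.16, 9.57 and 9.34 in TC32 and 5.37, 5.15 and 5.38 in TC71. The treated and control arrays of TC32 overlapped, whereas every treated TC71 array lay below every TC71 control array. The difference in TC32 was 0.03, with a 95% interval from -0.19 to 0.25 (limma adjusted p = 0.845), and in TC71 it was -0.21, with an interval from -0.43 to 0.01 (adjusted p = 0.154). At 208892_s_at TC71 was lower by 0.41 ± 0.14 with mithramycin (limma adjusted p = 0.0494). That call ended when any 1 of 9 arrays out of 12 was dropped, including the fit without TC71 control replicate 1, in the fit on the 6 TC71 arrays alone and with the beta-actin covariate. The lines' responses did not differ by the test (adjusted p from 0.302 to 0.427 over the 3 sets).

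The nuclear phosphatases were closer together in the untreated lines than DUSP6. DUSP1, an inducible phosphatase that acts on p38 and JNK as well as ERK, read 7.19, 7.12 and 7.11 on the TC32 control arrays and 6.55, 6.42 and 6.43 on the TC71 control arrays at its brightest set, 201041_s_at. The lines did not overlap, and TC71 was lower by 0.67 ± 0.08 (limma adjusted p = 1.21e-05). The dimmer sets 226578_s_at and 201044_x_at were at -0.14 and -0.24 and did not pass, although the latter passed without TC71 control replicate 3 (-0.33). DUSP5, a nuclear phosphatase for ERK with 1 probe set, read 6.93, 7.27 and 7.10 in TC32 controls and 6.48, 6.44 and 6.50 in TC71 controls. It was thus lower on every TC71 control array, by 0.62 ± 0.08 (limma adjusted p = 3.52e-05). DUSP4, a nuclear phosphatase for ERK, JNK and p38, lay below the array medians on every array at all 3 of its probe sets. Its sets passed as lower in TC71, at -0.48, -0.32 and -0.48 (limma adjusted p from 0.0143 to 0.0348), but calls this close to the floor are rough, and each ended in at least 2 of the other processings and in 2 or 3 of the 12 fits that left out 1 array.

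Mithramycin changed the nuclear phosphatases little. DUSP1 rose in TC71, from 6.55, 6.42 and 6.43 to 6.77, 6.65 and 6.71. The treated and control arrays did not overlap, and the rise was 0.24 ± 0.08 (limma adjusted p = 0.0409). It no longer passed with arrays centred on housekeeping genes, with the beta-actin covariate, or in 7 of the 12 fits that left out 1 array. In TC32 the same set, 201041_s_at, was at 0.17 ± 0.08 (adjusted p = 0.124), and it passed with quantile normalization run again (0.29) and without TC32 mithramycin replicate 3 (0.26). The dimmer DUSP1 sets did not pass in either line, with 226578_s_at at 0.18 and 0.27 and 201044_x_at at 0.10 and 0.23, although 226578_s_at passed in TC32 without TC32 mithramycin replicate 2 (0.41). At 201041_s_at the responses of the lines differed by 0.07, with a 95% interval from -0.18 to 0.32. DUSP5 was at -0.09 ± 0.08 in TC32 and 0.16 ± 0.08 in TC71 (adjusted p = 0.445 and 0.187), the latter 0.25 (adjusted p = 0.03) with quantile normalization run again. The 3 DUSP4 sets lay between -0.11 and 0.12 over the lines, and none passed.

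Among the Sprouty genes, SPRY2 differed most between the untreated lines. Its only probe set read 5.43, 5.56 and 5.38 on the TC32 control arrays and 3.99, 4.15 and 4.19 on the TC71 control arrays. The lines did not overlap, and every TC71 control array lay below its array median. TC71 was lower by 1.35 ± 0.12 (limma adjusted p = 4.81e-07). SPRY4 was also lower in TC71, with 4.0, 4.38 and 4.37 against 5.07, 4.78 and 4.80 in TC32. This difference, -0.64 ± 0.17 (limma adjusted p = 7.44e-03), was -0.33 (adjusted p = 0.417) with the beta-actin covariate. SPRY1 did not pass at 230212_at (-0.12) or 212558_at (-0.50), and TC32 control replicate 2 alone stood at 4.96 at the latter set while the other TC32 controls read 3.92 and 4.03. Without TC32 control replicate 1 or 3, or with a trended and robust prior, this set passed at -0.69, -0.63 and -0.50.

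With mithramycin SPRY2 fell in TC32 only by the test within that line. The treated arrays read 4.90, 5.26 and 5.16, all below the TC32 controls. The fall was 0.35 ± 0.12 (limma adjusted p = 0.0328) and no longer passed without TC32 control replicate 1 or 2 or TC32 mithramycin replicate 1 or 3. In TC71 SPRY2 was at 0.04 ± 0.12, with all 6 arrays below their medians. The difference between the responses, 0.39, had a 95% interval from 0.03 to 0.75 and did not pass (limma adjusted p = 0.225), so the lines are not shown to differ. SPRY1 rose by 0.24 ± 0.09 in TC32 at 230212_at (limma adjusted p = 0.0486), which ended under 6 of 8 other processings and on dropping any 1 of 7 arrays. In TC71 the same set was at 0.20 ± 0.09 (adjusted p = 0.125) and passed without TC71 control replicate 2 (0.28), and the responses differed by -0.05, with a 95% interval from -0.32 to 0.23. Its other set was at -0.40 in TC32 and passed only without TC32 control replicate 1 (-0.60), and in TC71 it was at -0.02. SPRY4 was at -0.08 ± 0.17 in TC32 and -0.03 ± 0.17 in TC71 (adjusted p = 0.758 and 0.934).

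**Figure D2:**
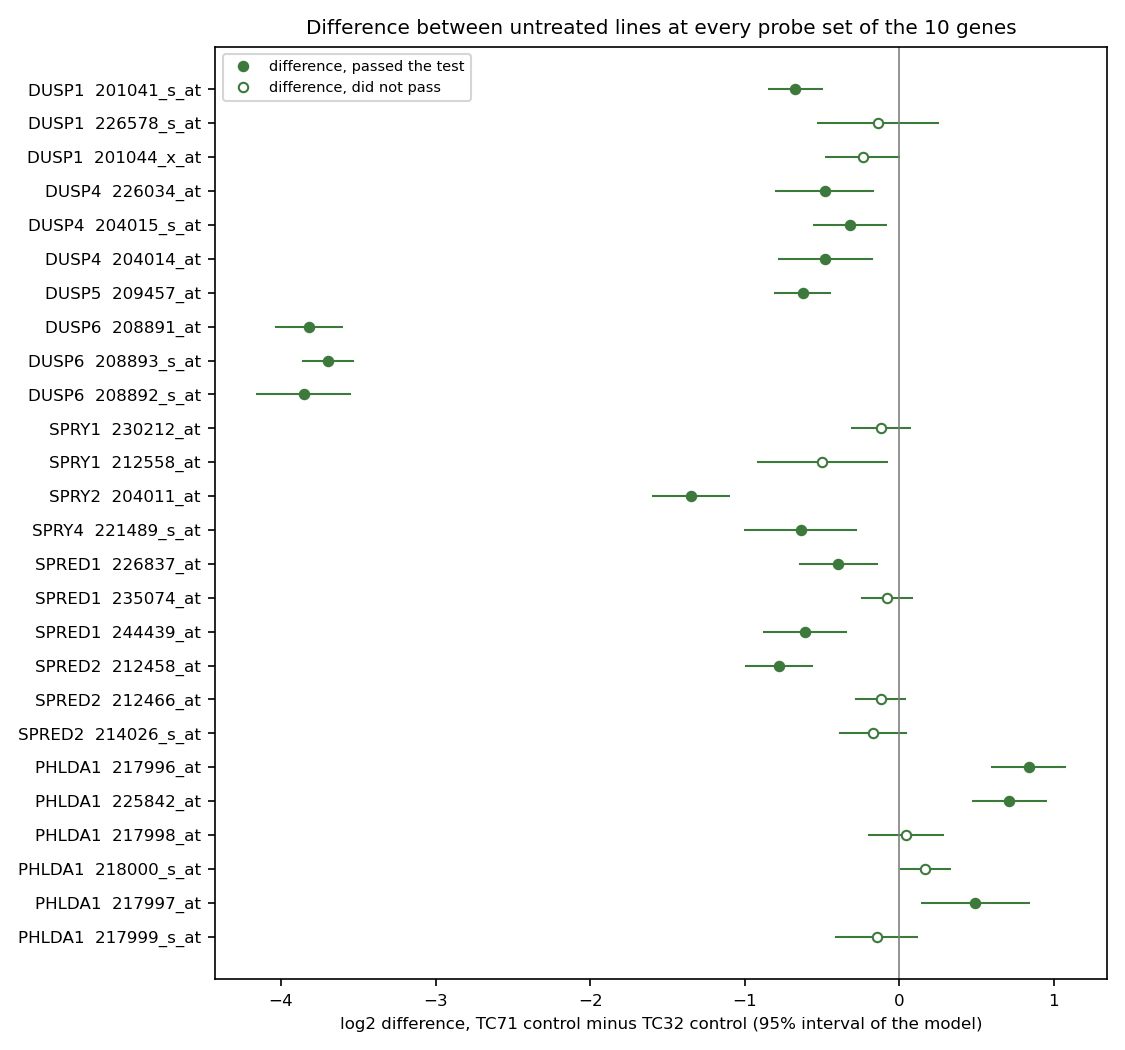
Log2 difference TC71 control minus TC32 control (horizontal axis) with the 95% interval of the model for each of the 26 probe sets (vertical axis), filled where the difference passed at an adjusted p under 0.05. The 3 DUSP6 sets lie between -3.85 and -3.70, SPRY2 at -1.35, and the 3 sets that passed as higher in TC71 belong to PHLDA1.

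SPRED2, which holds back RAS and RAF, fell in both lines and was the gene of these 10 that fell furthest. The set 212458_at read 7.68, 7.73 and 7.63 on the TC32 control arrays and 5.65, 6.09 and 6.08 with mithramycin. In TC71 it read 6.90, 6.87 and 6.94 in controls and 5.44, 5.42 and 5.52 with the drug. Treated and control arrays were far apart in each line. The fall was 1.74 ± 0.10 in TC32, or 3.35-fold (limma adjusted p = 3.45e-08), and 1.44 ± 0.10 in TC71, or 2.72-fold (adjusted p = 2.71e-07). By brightest set, SPRED2 was number 118 from the lowest of 19775 genes in TC32 and number 197 in TC71. The responses differed by 0.30, with a 95% interval from -0.01 to 0.61 (adjusted p = 0.287). SPRED2 was also lower in untreated TC71 than in untreated TC32, by 0.78 ± 0.10 (limma adjusted p = 2.31e-05).

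The other SPRED2 probe sets did not show this fall. The sets 212466_at and 214026_s_at lay below the array medians on all 12 arrays, at 3.63 to 3.90 and 1.85 to 2.33. Their differences were -0.03 and -0.19 in TC32 and 0.08 and -0.02 in TC71, and none passed (214026_s_at did in TC32 with arrays centred on housekeeping genes, at -0.30). The fall of SPRED2 thus rests on 1 probe set. It passed in every processing that kept the set and in every fit that left out 1 array, with a range from -1.84 to -1.60 in TC32 and from -1.57 to -1.36 in TC71.

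SPRED1, the close relative of SPRED2, changed less. Its brightest set, 226837_at, read 7.0, 7.22 and 6.88 in TC32 controls and 6.41, 6.89 and 6.61 with mithramycin. The groups touched, since the highest treated array lay just above the lowest control array. The fall of 0.40 ± 0.12 (limma adjusted p = 0.0186) no longer passed with quantile normalization run again, in the fit on the 6 TC32 arrays alone, or without TC32 control replicate 2 or TC32 mithramycin replicate 1 or 3. In TC71 the same set was at -0.16 ± 0.12 (adjusted p = 0.366). The other sets pointed in different directions in TC32, 235074_at at 0.16 and 244439_at at -0.31, and neither passed. With quantile normalization run again both did, at 0.23 and -0.37. The set 235074_at also passed without TC32 mithramycin replicate 1 (0.23), and 244439_at with arrays centred on housekeeping genes (-0.41), without TC32 mithramycin replicate 2 (-0.44) and without TC71 mithramycin replicate 3 (-0.31). In TC71 these sets were at 0.15 and 0.18, opposite in sign to 226837_at, and did not pass. For 244439_at, which lay below the medians on all arrays, the difference between the responses was 0.48 ± 0.18 (limma adjusted p = 0.148) and passed only without TC32 mithramycin replicate 2 (0.61) or without TC71 mithramycin replicate 3 (0.62). In untreated cells SPRED1 was lower in TC71 at 226837_at (-0.40) and 244439_at (-0.61) and did not pass at 235074_at (-0.08). The first of these no longer passed with arrays centred on housekeeping genes, with the beta-actin covariate, or without TC32 control replicate 2 or TC71 control replicate 3, and the second no longer passed with the covariate.

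**Figure D3:**
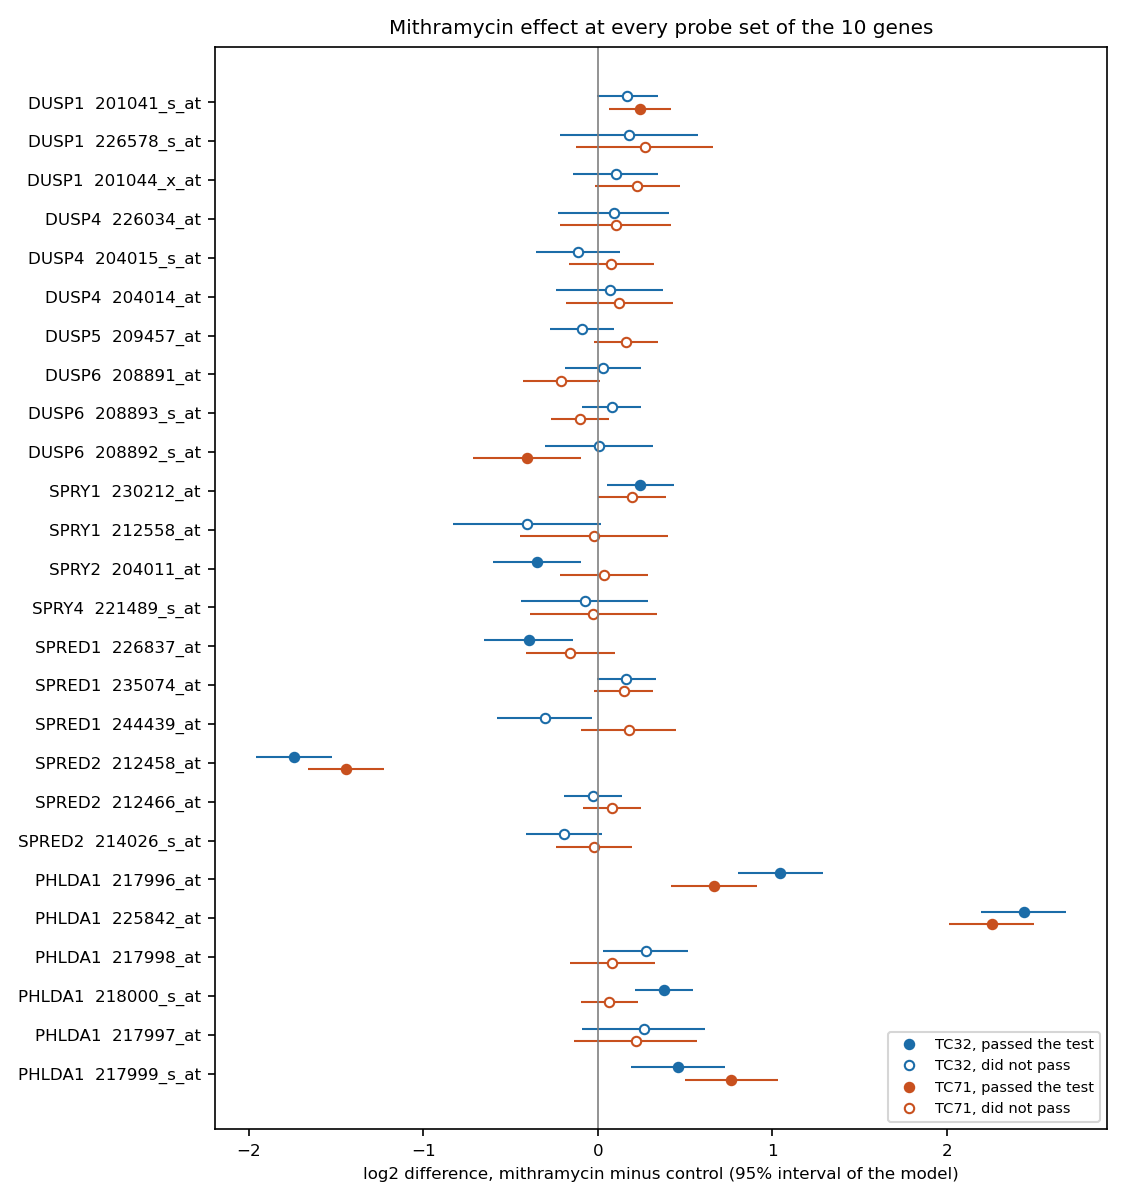
Log2 difference mithramycin minus control (horizontal axis) with the 95% interval of the model in TC32 (blue) and TC71 (orange) for each of the 26 probe sets (vertical axis), filled where the difference passed at an adjusted p under 0.05. Most intervals lie near or across 0, while SPRED2 212458_at lies at -1.74 and -1.44 and PHLDA1 225842_at at 2.44 and 2.26.

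PHLDA1 rose with mithramycin in each line. Of its probe sets 225842_at rose furthest, and it is not the brightest. It read 3.76, 4.30 and 3.95 on the TC32 control arrays and 6.56, 6.40 and 6.39 with the drug. In TC71 it read 4.72, 4.69 and 4.75 in controls and 7.04, 6.88 and 7.01 with the drug. Treated and control arrays were far apart in each line, and the 3 TC32 controls lay below their array medians, so the size in TC32 is rough. The rise was 2.44 ± 0.11 in TC32, or 5.44-fold (limma adjusted p = 4.97e-09), and 2.26 ± 0.11 in TC71, or 4.78-fold (adjusted p = 1.5e-08). The responses differed by -0.19, with a 95% interval from -0.53 to 0.16 (adjusted p = 0.613).

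The 6 PHLDA1 probe sets agreed on the direction but not on the size. The set with the highest mean, 217996_at, read 4.73, 4.85 and 4.52 in TC32 controls and 5.88, 5.63 and 5.73 with mithramycin, a rise of 1.05 ± 0.11 (limma adjusted p = 9.47e-06). In TC71 it read 5.67, 5.66 and 5.28 in controls and 6.16, 6.19 and 6.25 with the drug, a rise of 0.66 ± 0.11 (limma adjusted p = 6.1e-04). Neither pair of groups overlapped. By this set PHLDA1 was number 130 from the highest of 19775 genes in TC32 and number 315 in TC71. The dim set 217999_s_at rose by 0.46 in TC32 and 0.76 in TC71, the first of which no longer passed without TC32 control replicate 3, and 218000_s_at rose by 0.38 in TC32 but did not pass in TC71 (0.07). The sets 217998_at and 217997_at, at 0.27 and 0.26 in TC32 and 0.08 and 0.22 in TC71, did not pass. In TC32 they passed only without TC32 mithramycin replicate 2, at 0.38 and 0.445. The set 217997_at lay below the array medians on all 12 arrays. By contrast, 217998_at and 218000_s_at lay above them on all 12 and still did not pass in TC71. In all, 4 sets passed in TC32 and 3 in TC71, out of 6.

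PHLDA1 was also the 1 gene of the 10 that was higher in untreated TC71. Its sets 217996_at, 225842_at and 217997_at were higher there by 0.84 ± 0.11, 0.71 ± 0.11 and 0.49 ± 0.16 (limma adjusted p = 3.5e-05, 1.39e-04 and 0.0252). The last of these no longer passed with the beta-actin covariate or in 4 of the 12 fits that left out 1 array, namely those without TC32 control replicate 1 or 3 or TC71 control replicate 2 or 3. The 3 remaining sets lay between -0.14 and 0.17 and did not pass. Of these, 218000_s_at passed with arrays centred on housekeeping genes (0.39) and without TC71 control replicate 3 (0.24). The line difference and the TC32 and TC71 responses share control arrays, so they are not independent of each other.

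**Figure D4:**
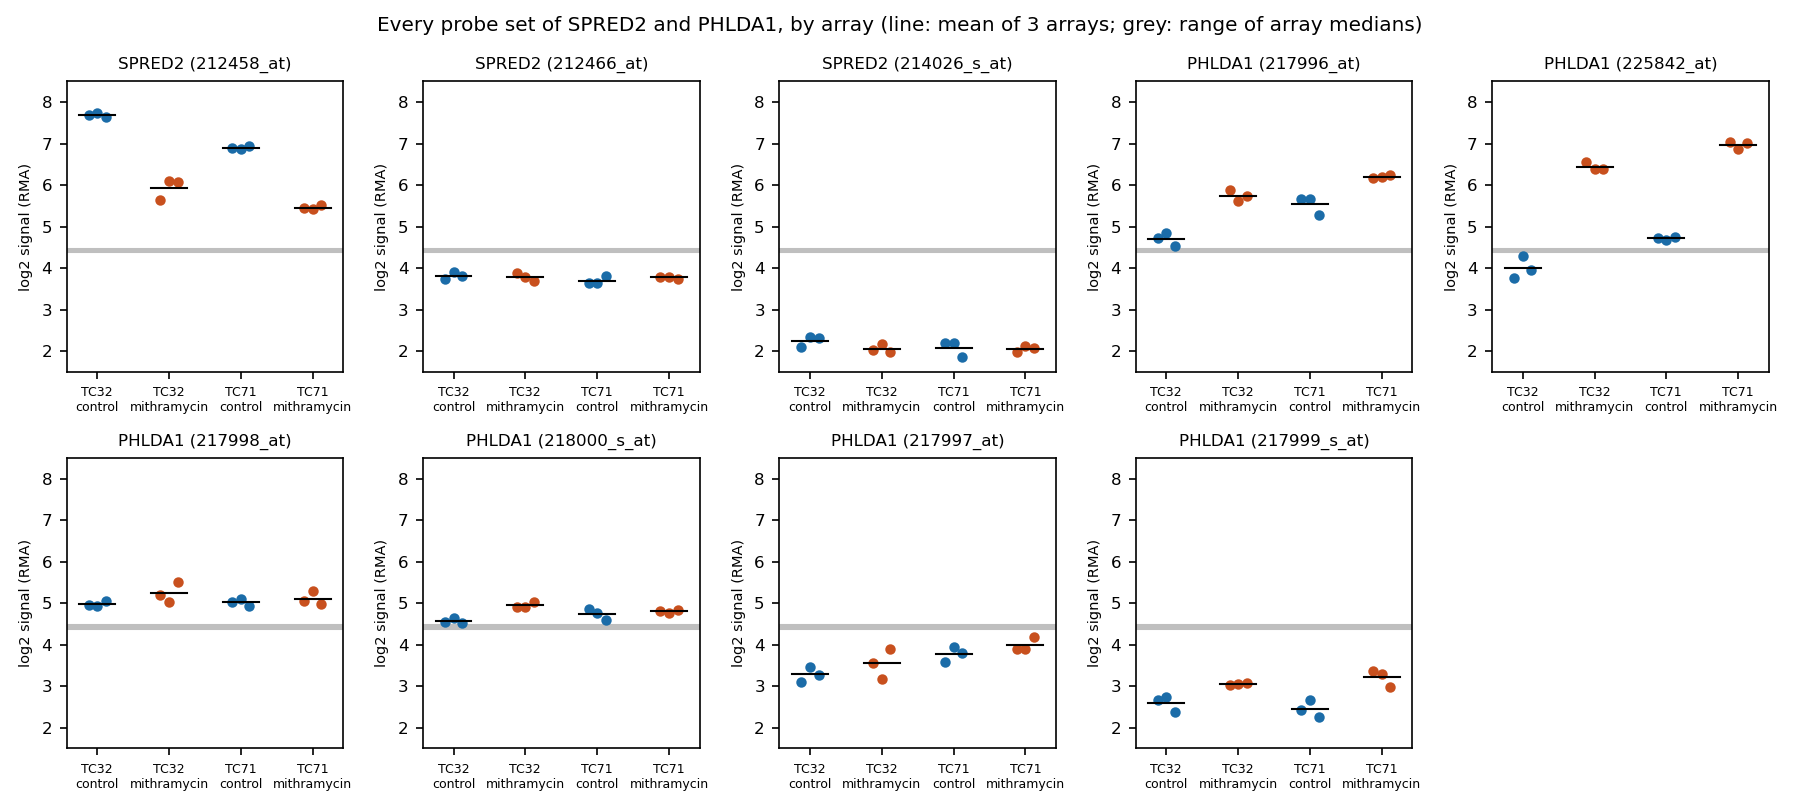
Log2 RMA signal (vertical axis) of all 3 SPRED2 and all 6 PHLDA1 probe sets on every array, by group (horizontal axis), with blue points for control arrays, orange points for mithramycin arrays, black lines for the mean of 3 arrays and a grey band for the range of array medians. SPRED2 falls at 212458_at while its other 2 sets lie below the band on all 12 arrays, and PHLDA1 rises most at 225842_at.

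The scale of the arrays sets how such counts split. With arrays centred on 9 measured housekeeping genes, the median of all probe sets moved by -0.102 in TC32, by -0.13 in TC71 and by 0.22 for the untreated lines. Higher calls then made up 31.2% of all calls in TC32, 23.6% in TC71 and 76.7% for the untreated lines, against 53.6%, 51.5% and 48.6%. Of the 26 probe sets 4 were then higher and 5 lower in TC32, 3 higher and 4 lower in TC71, and 4 higher and 9 lower in untreated TC71. On that scale the DUSP6 sets 208891_at and 208893_s_at fell in TC71, by 0.34 and 0.23 (limma adjusted p = 0.0265 and 0.0382). No direction that had passed turned with that centring or with quantile normalization run again.

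The wider pathway was described with lists of receptors, kinases, substrates, target genes and other feedback genes, 98 measured genes in all, each by its brightest probe set. In TC32 21 of them rose and 34 fell with mithramycin, against 23.1% and 18.5% of all genes, and in TC71 18 rose and 23 fell, against 17% and 15.3%. The median of the 98 genes was 0.015 in TC32 and -0.0091 in TC71, against 0.083 and 0.067 over all genes. The responses of the lines differed for 16 of the 98 genes, 12 with a higher and 4 with a lower value in TC71, against 8.01% of all genes.

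Of 20 other feedback genes, 4 rose and 8 fell in TC32, against 23.1% and 18.5% of all genes. In TC71 4 rose and 6 fell, against 17% and 15.3%. The share that fell was above that of all genes in each line, and the share that rose was near it. The list was chosen with earlier results of these data known, so these shares are a description only. LRIG1, which restrains receptor tyrosine kinases, fell by 1.86 ± 0.07 in TC32 and 1.69 ± 0.07 in TC71 (limma adjusted p = 9.56e-10 and 2.16e-09), although its 4 probe sets ranged up to 0.36 and 0.31. PHLDA2, a relative of PHLDA1, rose by 0.92 ± 0.08 and 0.95 ± 0.08 (limma adjusted p = 1.21e-06 and 1.39e-06), with the lowest of its 3 sets at 0.37 and 0.09. DUSP2, a nuclear phosphatase, fell by 0.41 ± 0.09 and 0.71 ± 0.09, and in untreated cells it was 5.32-fold higher in TC71, opposite to DUSP6. DUSP7, a cytoplasmic phosphatase for ERK like DUSP6, fell in TC32 (by 0.58 ± 0.12), was at -0.20 ± 0.12 in TC71 and did not pass there, and its other set was at 0.18 and 0.08. DUSP9, the third cytoplasmic one, stood at 0.10 and 0.04 and did not pass. DUSP10, which acts on JNK and p38, did not pass either, at 0.29 and -0.23. SPRY3 rose by 0.42 ± 0.15 in TC32 from below the array medians, a call lost in 5 of 8 other processings, and did not pass in TC71 (0.24). SPRED3 was at 0.24 in each line and did not pass. IL17RD, an inhibitor of fibroblast growth factor signalling, stood at 0.07 in TC32 and fell by 0.26 ± 0.09 in TC71 (limma adjusted p = 0.0476), which did not hold when any 1 of 9 arrays was dropped.

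Upstream of ERK, 3 of 19 receptor and adaptor genes rose and 9 fell in TC32, and 2 rose and 6 fell in TC71. Over all genes, 23.1% rose and 18.5% fell in TC32, and 17% and 15.3% did in TC71, and the counts of the shorter lists that follow stand against the same shares. SOS1, the exchange factor that loads RAS with GTP, fell by 1.16 ± 0.08 and 0.96 ± 0.08 (limma adjusted p = 1.17e-07 and 9.38e-07), with the weakest of its 5 sets at -0.10 and -0.05. The receptor gene FGFR2 fell in TC32, by 1.56 ± 0.09 (limma adjusted p = 3.8e-08), but was at -0.01 in TC71, where its control mean of 3.69 lay below the array medians. Its 11 sets ranged from -1.68 to 0.37 in TC32. FRS3, an adaptor of fibroblast growth factor receptors, rose by 0.48 ± 0.08 and 0.42 ± 0.08. KSR1, a scaffold of the RAF, MEK and ERK kinases, fell in each line, by 1.75 ± 0.12 (TC32) and 0.76 ± 0.12 (TC71), with its highest set at 0.27 and 0.30. RASAL2, an inhibitor of RAS, fell by 0.71 ± 0.12 and 1.08 ± 0.12, with its highest set at 0.05 and 0.19. The ERK gene MAPK3 rose by 0.32 ± 0.10 in TC32 (limma adjusted p = 0.021), a call lost with arrays centred on housekeeping genes, in the fit on the 6 TC32 arrays and in 4 of the 12 fits that left out 1 array, and stood at 0.25 in TC71. Of the 8 RAS genes and regulators measured 2 rose and 2 fell in TC32 and 0 rose and 2 fell in TC71, of the 11 kinases and scaffolds 3 rose and 3 fell in TC32 and 1 rose and 2 fell in TC71, of the 13 ERK substrates 2 rose and 3 fell in TC32 and 3 rose and 2 fell in TC71, and of the 8 JNK and p38 kinases 2 rose and 2 fell in TC32 and 1 rose and 1 fell in TC71.

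Genes that ERK is known to switch on were mostly lower in untreated TC71, as DUSP6 was. Of 19 measured, 15 were lower in TC71 and 3 higher, against 23.5% and 25.8% of all genes, with a median of -0.73. FOS was 14.9-fold lower, EPHA2 7.60-fold lower and EPHA4 5.92-fold lower, whereas ETV5 was 4.87-fold higher. ETV4 was lower by 0.41 ± 0.13 (limma adjusted p = 0.0223), a call lost with arrays centred on housekeeping genes, with the beta-actin covariate and in 4 of the 12 fits that left out 1 array. The lower call of IER2 (-0.26) was also lost with that centring and with that covariate. The counts of 15 and 3 were taken without such centring or covariate. With mithramycin 5 of the 19 rose and 7 fell in TC32, against 23.1% and 18.5% of all genes. In TC71 7 rose and 4 fell, against 17% and 15.3%. HBEGF, a ligand of the epidermal growth factor receptor, rose by 0.77 ± 0.12 and 0.80 ± 0.12 at the brightest of its 4 sets, the lowest of which was at 0.11 and 0.07. IER2 rose by 0.67 ± 0.06 and 0.65 ± 0.06, and JUNB by 0.55 ± 0.11 and 0.57 ± 0.11. ETV4 stood at 0.20 and 0.24 and did not pass in either line.

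**Figure D5:**
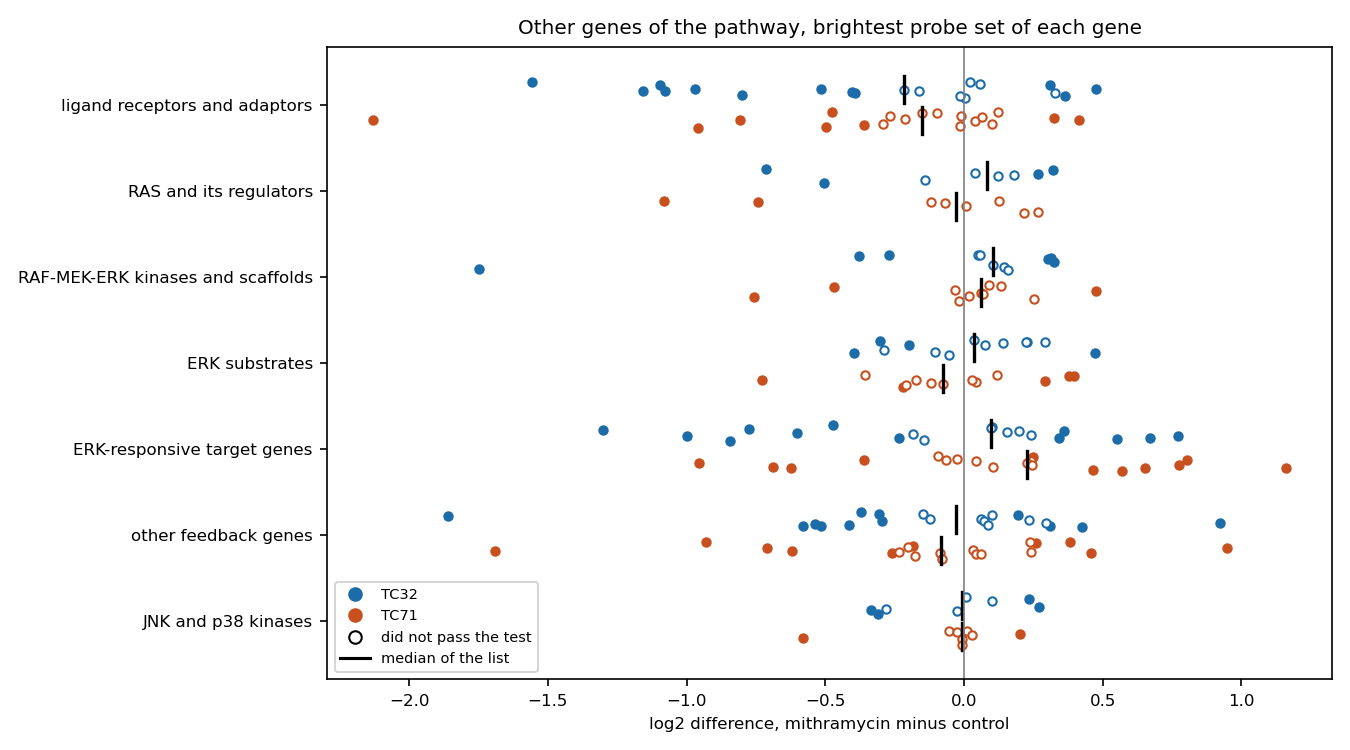
Log2 difference mithramycin minus control (horizontal axis) of 98 other genes of the pathway, each by its brightest probe set, in TC32 (blue) and TC71 (orange), by list (vertical axis), with filled points for genes that passed at an adjusted p under 0.05 and black bars for list medians. Each list holds genes on both sides of 0 in TC32, and the lowest points are LRIG1 at -1.86 in TC32 and IGF1R at -2.13 in TC71.

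The genes whose levels followed DUSP6 most closely over the 12 arrays were those that separate the lines. When 8379 genes averaging 6 or more were searched, the highest Pearson correlations with 208891_at were those of TNC (0.999), HAUS7, ACLY, MEST and SERPINE2 (0.998 each). The 12 arrays come from only 2 lines, so these correlations describe a shared line difference. TNC, which encodes the matrix protein tenascin C, had a mean of 11.4 in TC32 controls and 4.70 in TC71 controls. For SPRY4 the closest were DAGLB (0.918), IARS1 (0.908), TRAPPC9 (0.907), SLC29A1 (0.899) and LINC01296 (0.897).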

How the data were processed

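Expression was measured on 12 one-colour oligonucleotide arrays. The authors deposited 1 log2 value per probe set and array, made with RMA per the submitters' processing notes; which version and settings they used is not stated in the labels. RMA forces 1 distribution of probe values on all arrays, so changes are relative to the other genes of an array. Of 54675 probe sets, 62 control sets were left out. Symbols come from the platform annotation, updated by Entrez gene identifier through a RefSeq table (GRCh38.p14), which served for names and chromosomes.

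A linear model with a mean for each of the 4 groups was fitted to all 54613 probe sets with limma 3.58.1 (R 4.3.3, empirical Bayes), with p-values adjusted over all of them. Contrasts were mithramycin minus control in each line, the difference of both effects, and TC71 minus TC32 controls. The code was tested on simulated data. Arrays of 1 group correlated at 0.99477 or higher, and no 2 were identical. The labels call the replicates biological but do not say how cultures were separated.

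All 26 probe sets of the 10 genes were analysed. From the pathway lists (111 genes, 98 measured), the 5 genes with the largest rise and the 5 with the largest fall that passed in each line are named, and 11 more whatever their values. The 10 genes and the lists were chosen with earlier results of these data known. Alternatives were 9 other processings and 12 fits that each left out 1 array.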

Additional observations from a re-analysis of the deposited data

Results flagged for a closer look

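None of the 26 probe sets of the 10 genes passed the test of a difference between the lines' responses, against 6.86% of all probe sets. By brightest set, 16 of the 98 other pathway genes passed it, against 8.01% of all genes. The 9 named here were in part chosen for a large change in 1 line. Values are the TC71 effect minus the TC32 effect on the log2 scale, with limma adjusted p over all probe sets. The ERK target FOS differed by 1.77 (adjusted p = 3.92e-06). It fell by 1.0 ± 0.08 in TC32, where every treated array lay below every control, and rose by 0.77 ± 0.08 in TC71, from a control mean of 4.61 against 8.51 in TC32. FGFR2 differed by 1.55 (adjusted p = 1.87e-05), EPHA4 by 0.94 (3.95e-04), EPHA2 by 0.68 (3.28e-03) and KSR1 by 0.99 (2.68e-03). KSR1 and EPHA4 fell in both lines, further in TC32, whereas FGFR2 and EPHA2 fell in TC32 and did not pass in TC71 (-0.01 and -0.09), where their control means of 3.69 and 4.35 lay below the array medians. The 5 EPHA4 sets ranged from -1.98 to -0.01 in TC32 and from -1.23 to 0.19 in TC71. The immediate early gene IER3 differed by 0.82 (8.51e-05), rising by 0.34 in TC32 and by 1.16 in TC71. The receptor gene IGF1R differed by -1.05 (1.96e-04) and the cyclin gene CCND1 by -0.72 (3.42e-04), each with the larger fall in TC71. The 5 IGF1R sets ranged from -1.53 to 0.16 in TC32 and from -2.14 to 0.21 in TC71. ETV5 differed by -0.79 (0.0286), with a fall of 0.69 in TC71 and a difference of 0.10 in TC32 that did not pass, and this call ended with quantile normalization run again and in 9 of the 12 fits that left out 1 array.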

How the results depend on the processing

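The large changes (SPRED2 212458_at and PHLDA1 225842_at with mithramycin, DUSP6 and SPRY2 between the lines) kept their direction and call under every alternative that kept the probe set. Small calls near the threshold did not, and 8 of the 26 probe sets lay below the array medians, which limits their precision. The only called direction that turned was DUSP4 204015_s_at between the lines, at 0.037 (adjusted p = 0.884) with the beta-actin covariate; the cause was not tested.

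Counts move with fewer probe sets by construction. In TC32, sets higher and lower over all were 5311 and 5331 at a mean of at least 6, and 5060 and 3831 by brightest set, with 6855 higher without shared-probe (_x_at and _s_at) sets. In TC71 these were 4924 and 4556, 3828 and 3190, and 5064 and 4975. For the untreated lines they were 6332 and 5786, 5281 and 4904, and 7369 and 7625, and for the difference of effects 1239 and 736 by brightest set. Of the feedback sets, the higher calls in TC32 were 0, 2 and 2 and in TC71 1, 2 and 2 in the order mean, brightest and no shared probes, and lower calls in TC71 were 1 and 1 for the last 2. For the lines lower calls were 7, 8 and 8 and higher calls 0 and 1 for the first 2. Centring on housekeeping genes gave 5446 higher in TC32, 3558 higher and 11506 lower in TC71, and 22408 higher and 6826 lower for the lines, with 5 feedback sets lower in TC32 and 4 in TC71. The beta-actin covariate gave 4009 higher in TC71, 1431 and 799 for the difference of effects, and 7855 lower for the lines, with 1 feedback set lower in TC71 and 7 for the lines. The fit on 6 arrays left 1 feedback set lower in TC71. These causes were not tested.

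Leaving out 1 array gave 8625 to 11000 sets higher and 8306 to 9263 lower in TC32, 6094 to 8627 and 6429 to 7789 in TC71, 1782 to 2570 and 964 to 1398 for the difference of effects, and 10482 to 11617 and 10652 to 12416 for the lines. Of the feedback sets, 3 to 7 were higher and 1 to 4 lower in TC32, 3 to 4 and 1 to 2 in TC71, 0 to 1 higher and 0 to 0 lower for the difference of effects, and 2 to 3 and 11 to 13 for the lines. In TC32, 3 were higher without TC32 control replicate 3, and 1 was lower without TC32 mithramycin replicate 1 or 3 or TC32 control replicate 2.

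Correlations of deviations between same-numbered replicates were 0.0266 to 0.211 for TC32 control and mithramycin, 0.0417 to 0.115 for the controls of both lines and -0.0865 to -0.0182 for TC71, so pairing by number was not shown, and 2 of 3 TC32 controls but 0 of 3 TC71 controls correlated best with their own number. With the replicate block 4 feedback sets were higher and 3 lower in TC32, and 4 higher and 1 lower in TC71, since SPRY1 230212_at and DUSP6 208892_s_at no longer passed.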
